A study of Mus musculus with 16 samples.

Results

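The barrier between blood and retina was followed through 10 genes of its endothelial cells, tight junctions and mural cells, Cldn5, Pecam1, Cdh5, Kdr, Flt1, Tek, Tie1, Ocln, Tjp1 and Pdgfrb. They were taken by symbol from the deposited table of all genes, in which 10 of 10 were found among 25905 symbols. The libraries came from wild type male C57BL/6 mice labelled as 10 weeks old, which per the study's methods was their age when flown, so the retinas were taken some weeks later. In the spaceflight group 8 mice had lived for the weeks of the mission in rodent habitats on the International Space Station, and in the ground control group 8 mice were kept on Earth in the same housing hardware. Retinas of right eyes were taken after the return of the flown mice, which adds the landing and the time up to collection to the spaceflight group. RNA was sequenced from stranded libraries made with 100 ng of total RNA.

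Capillaries of the inner retina are closed by endothelial cells whose tight junctions stop solutes from passing between cells. VEGF and angiopoietin receptors on these cells set vessel growth and leakiness, and pericytes wrapped around the capillaries keep the barrier tight. An outer barrier is formed by the tight junctions of the pigment epithelium.

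The values are the authors' mean over all 16 libraries of read counts divided by library size factors, named the mean normalized count here. It pools spaceflight and ground control, carries no spread between mice, and gives no difference between the groups. The columns of counts per library carry codes that match no label, so levels in each mouse, the depth of each library and the comparison of spaceflight with ground control were not analysed here. Orders of levels are therefore descriptions without an error, and whether neighbours in them differ beyond the spread between mice was not tested. Levels of named genes were set side by side per kilobase of the longest annotated transcript. Shares of genes with a lower value, sums over lists and values by number of accessions are of the mean normalized count without division by length, in which a long transcript counts for more.

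Per kilobase of the longest transcript, the VEGF receptors Kdr and Flt1 stood far above the rest of the barrier genes, the claudin and cadherin of the endothelial junction and the angiopoietin receptor Tek followed, and Tjp1, Pecam1 and Pdgfrb were at or near 0. With the shortest annotated coding transcript as the length, Cdh5 came first, at 288 per kilobase against 229 for Kdr and 191 for Flt1. The 7 genes from Kdr down to Ocln, each counted on 1 transcript accession, had mean normalized counts between 28.3 and 1359, with a median of 67.5. The 3 genes at the bottom were each counted on 2 accessions, and their values were 5.80, 0.446 and 0. All 10 genes together held 406 of each 1000000 of the table's summed mean normalized count, and the 4 receptor kinases held 379.6 of these.

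Kdr, the receptor that carries most of the growth and permeability signal of VEGF, had a mean normalized count of 1359 on the accession NM_010612.2. Per kilobase its level was 229. Without division by length, its mean normalized count was higher than that of 95.3% of the 19667 genes listed above 0. Flt1, which binds VEGF tightly and in its soluble form traps it, had a mean normalized count of 1199 and a level of 174 per kilobase. Kdr was 1.32-fold above Flt1 per kilobase and 1.13-fold without division by length. In bulk retina the cells that gave these reads cannot be told apart, nor can fewer cells of a type from less RNA per cell.

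Tek, the receptor of the angiopoietins that keeps resting vessels stable, had a level of 14.5 per kilobase, and Kdr was 15.8-fold above it. Tie1, a relative of Tek without a well-defined ligand of its own that modulates Tek signaling, had a level of 7.17 per kilobase. The mean normalized counts of Tek and Tie1 were 67.5 and 30.3, so the 4 receptor kinases split into a high and a low pair.

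Cldn5, the main claudin that seals endothelial tight junctions, had a level of 36.1 per kilobase from a mean normalized count of 51.1. Cdh5, the VE-cadherin of endothelial adherens junctions, had a level of 24.9 per kilobase from a mean normalized count of 99.5. Their order depended on the scale. Cldn5 was 1.45-fold above Cdh5 per kilobase, while its mean normalized count was 0.514 of that of Cdh5, whose longest transcript has 3995 bases against 1416. Ocln, the occludin of tight junctions in endothelia and epithelia, had a level of 6.99 per kilobase, and Tie1 exceeded it 1.02-fold. This pair swapped places with the coding length, at 18.1 for Ocln and 8.92 for Tie1 per kilobase, and with the shortest annotated coding transcript, at 72.7 and 7.42.

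**Figure D1:**
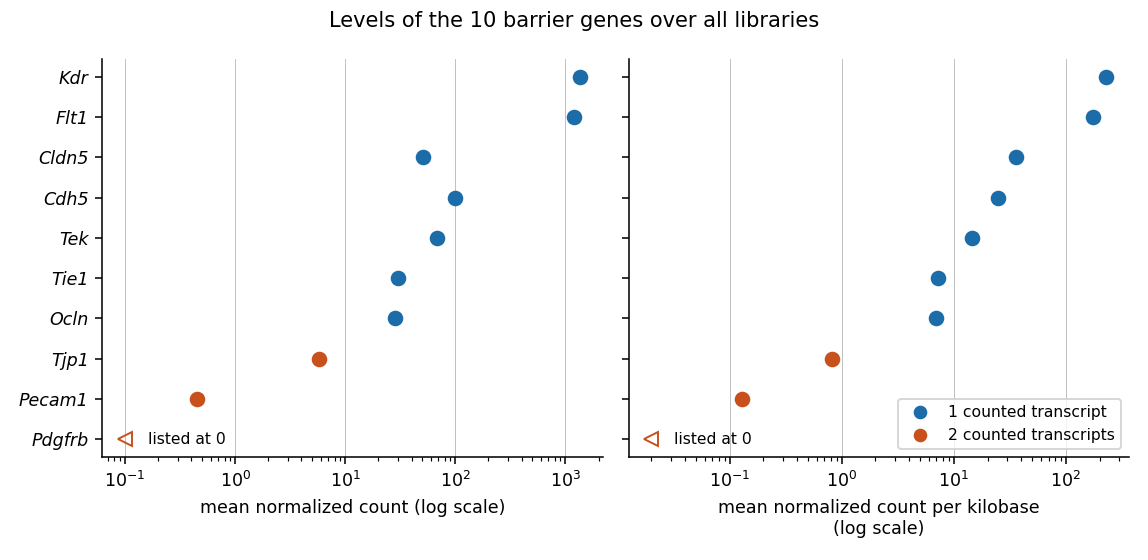
Levels of the 10 barrier genes as the authors' mean over all 16 libraries, without (left) and with (right) division by the longest annotated transcript in kilobases, on log axes. The 7 genes with 1 counted transcript lie at 28.3 or more on the left, and the 3 with 2 counted transcripts at 5.80 or less, with Pdgfrb listed at 0.

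Tjp1 encodes ZO-1, the scaffold that ties claudins and occludin to actin, and is used by epithelia and glia as well as endothelium. Its mean normalized count was 5.80, a level of 0.823 per kilobase, and Kdr stood 279-fold above it. That fold was 21.8 with the shortest annotated coding transcript as the length, and 31.4 per 1000 positions at which a read fits in bases of 1 counted transcript alone, a scale described with the transcript models and added after the values were seen. Pecam1, an adhesion molecule found all along endothelial cell contacts, had a mean normalized count of 0.446 and a level of 0.130 per kilobase. Without division by length, its mean normalized count was higher than that of 12.5% of genes above 0, and that of Cdh5, found at the same contacts, was higher than that of 59.97% of them. Pdgfrb, the receptor through which endothelial PDGF-B recruits pericytes, was listed at 0. Beta-catenin, Ctnnb1, a gene of nearly every cell that was also counted on 2 accessions, was at 2.42. The 14 remaining genes of a list used by most cells had 1 accession and values from 344 to 30899. That list was written after the levels of the barrier genes were seen and gives no separate check.

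The transcript models behind the accessions of these 3 genes share most or all of their bases, as seen in GENCODE release 21 for GRCm38, a later build than the authors used. For Pecam1, NM_001032378.1 and NM_008816.2 matched models of 3233 and 3283 bases, and 64 bases lay in 1 of them alone, which is 1.95% of the bases of both together. The longest run of such bases was a coding exon of 57 bases, exon 14 of 15 of NM_008816.2, at chr11:106671742-106671798 on the minus strand. Its length is below the read length of 75 bases, so 0 start positions place a read wholly inside it. For Tjp1, NM_001163574.1 and NM_009386.2 matched models of 6102 and 7049 bases with 1067 bases in 1 of them alone, 15.01% of the bases of both. Among them was a coding exon of 240 bases, exon 20 of 28 of NM_009386.2, at chr7:65314093-65314332 on the minus strand, in which 166 read starts fit. The lines below show the coding sense of both exons in capitals, with adjoining coding bases that both models share in lower case, since the longest coding stretch in which the counted transcripts of each gene can be told apart is this exon.
Pecam1 exon 14: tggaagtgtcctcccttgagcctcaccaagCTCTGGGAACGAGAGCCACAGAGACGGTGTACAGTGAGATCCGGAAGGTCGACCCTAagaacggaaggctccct
Tjp1 exon 20: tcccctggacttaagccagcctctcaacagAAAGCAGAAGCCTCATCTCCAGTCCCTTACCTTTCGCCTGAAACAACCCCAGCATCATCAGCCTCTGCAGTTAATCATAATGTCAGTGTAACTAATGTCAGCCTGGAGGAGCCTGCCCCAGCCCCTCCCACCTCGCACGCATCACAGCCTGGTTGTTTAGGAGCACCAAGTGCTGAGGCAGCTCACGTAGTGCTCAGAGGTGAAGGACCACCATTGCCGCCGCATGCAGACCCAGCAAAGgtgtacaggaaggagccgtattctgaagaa

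A GC content of 57.9% was found in the Pecam1 exon and of 55.4% in the Tjp1 exon. The remaining bases of Tjp1 in 1 model alone were 60 coding bases of NM_001163574.1, where 0 reads fit, and untranslated stretches of NM_009386.2 of 543 and 224 bases, where 469 and 150 reads fit. In all, 785 read starts fit in bases of 1 Tjp1 model alone. Divided by them, a scale chosen after the values were seen, the level of Tjp1 was 7.39 per 1000 read starts. On the same scale Tie1 was at 7.55 and Ocln, whose whole transcript is counted, at 7.12. The scale takes only reads wholly inside bases of 1 model as counted. How reads in shared bases were counted is not given in the sources used here, and this was not tested. Pecam1, with 0 such read starts, had a mean normalized count of 0.446. For Pdgfrb, NM_001146268.1 and NM_008809.2 matched the same model of 5407 bases, with 0 bases apart. For each of the 10 genes, 0 exon bases of the model of its first accession lay in exons of another counted gene. Bases found only in the second models of Pecam1 and Tjp1 were not checked. Genes named differently in the models and in the deposited symbols were not checked either.

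**Figure D2:**
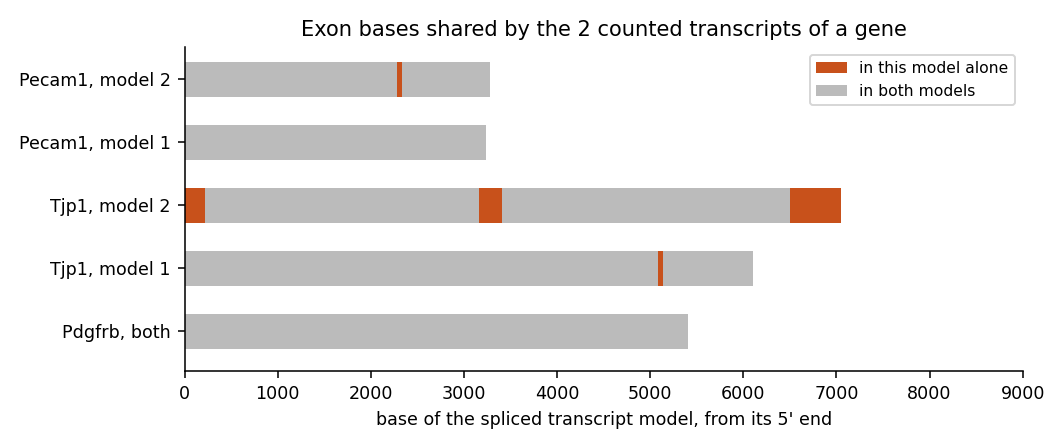
Spliced transcript models of the 3 barrier genes counted on 2 accessions, drawn to scale from the 5' end, with bases in both models in grey and bases in 1 model alone in orange. Pecam1 has 64 such bases, Tjp1 1067 and Pdgfrb 0.

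Levels also differed by number of accessions over the whole table, but there the sets of genes overlapped. Of genes whose accessions are all of the curated NM_ kind, 16959 had 1 accession and a median mean normalized count of 52.2, and 38.9% of them were below 10. The 2071 such genes with 2 accessions had a median of 1.62, and 69.5% were below 10. Values of 1000 or more were found for 7.86% of the first set and 1.35% of the second. Genes listed at 0 made up 19.3% of the first set and 22.4% of the second. Over accessions of any kind, 22086 genes had 1 accession and a median of 12.9, and 3794 genes had more and a median of 0.806. How counts of several accessions were brought to a symbol is not given in the sources used here. The part of the counting in these levels was not tested.

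**Figure D3:**
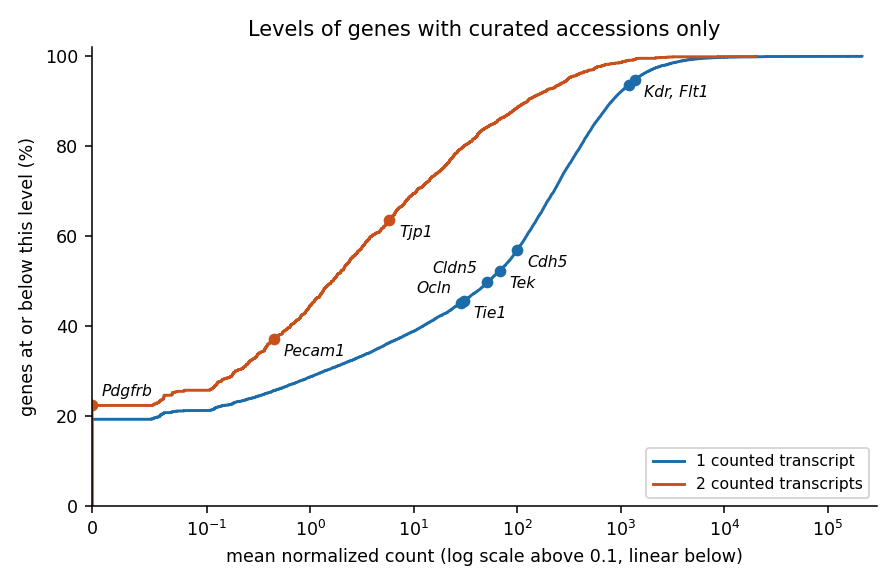
Share of genes at or below each mean normalized count, for 16959 genes with 1 and 2071 genes with 2 counted transcripts, all curated, with the 10 barrier genes marked on the curve of their set. The horizontal axis is logarithmic above 0.1 and linear below; the curve of the second set reaches its midpoint at 1.62 against 52.2.

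Both accessions were matched to a model for 1956 of the 2071 genes with 2 curated accessions, or 94.4%. The 376 genes in which 0 read starts fit in bases of 1 model alone, Pecam1 and Pdgfrb among them, had a median mean normalized count of 0.0761, and 91.8% were below 10. The medians were 0.412 with 1 to below 100 read starts, 1.63 with 100 to below 500 and 3.04 with 500 to below 1000, the range that holds Tjp1. With 1000 or more read starts, 634 genes had a median of 17.7. The shares below 10 did not follow the same order throughout. They were 96.5%, 78.8%, 63.6% and 42.9% from the range of 1 to below 100 read starts upward, the first of them above the share with 0 read starts. This is a description across genes, which are not independent replicates, and levels spread widely within each range. Among listed genes chosen after their values were seen, Nrl, a rod transcription factor, had 8 read starts and a mean normalized count of 88.9. The transcription factor Ets1 had 2929 read starts and a count of 1.08, and the endothelial sialomucin Emcn had 1044 and was listed at 0. Outside the lists, Glo1 and Dnm3, each with 2 accessions that match 1 shared model, as those of Pdgfrb do, and 0 read starts, had mean normalized counts of 991 and 940.3.

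**Figure D4:**
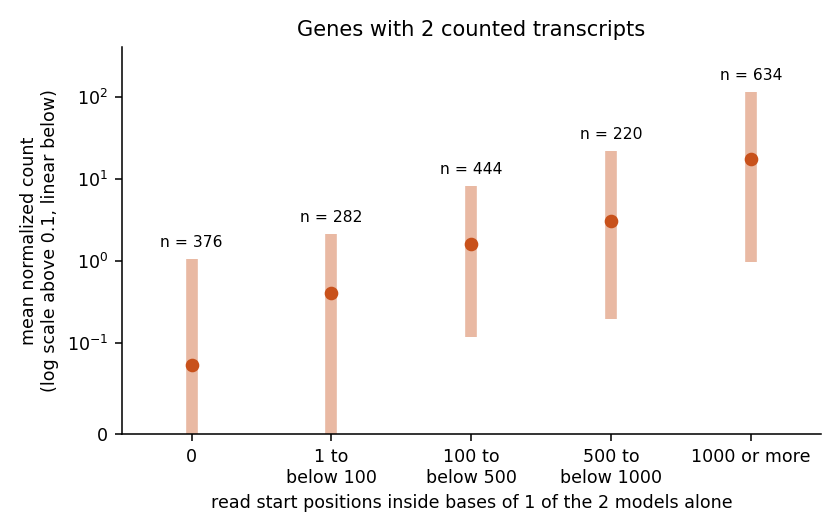
Mean normalized count of genes with 2 curated accessions against the number of read start positions inside bases of 1 of their models alone. Points are medians over genes, bars run from the lower to the upper quartile, and n is the number of genes. The medians go from 0.0761 with 0 read starts to 17.7 with 1000 or more.

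Of 10 endothelial markers set down to check the label, 7 are barrier genes of the set itself and give no separate check. The 3 remaining ones were the transcription factor Erg at a mean normalized count of 13.5, the adhesion molecule Esam at 73.0 and Emcn, with 2 accessions, listed at 0. Of 6 mural markers, the 4 with 1 accession were at 17.1 to 282, the highest being Rgs5, a regulator of G protein signaling typical of pericytes. The other 2, Pdgfrb and the potassium channel subunit Abcc9, were listed at 0. Which cells gave these reads was not tested.

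Among 9 lists of vascular and barrier genes beside the 10, 87 genes were found. Of 69 genes with 1 accession, 59 had a mean normalized count of at least 10, and the median was 45.2. Of 18 genes with more accessions, 16 were below 10 and 9 were listed at 0, and the exceptions were the tight junction proteins Marveld3 at 99.0 and Cldn19 at 10.2. Over all genes of the table with more accessions, 75.4% were below 10 and 32.7% were listed at 0. The shares over all genes with 1 accession were 48.3% and 22.6%.

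Ligands of the VEGF family that were counted on 1 accession were low beside Kdr and Flt1. The list of VEGF ligands and co-receptors had 8 genes in the table and held 40.9 per 1000000. Its highest genes were the co-receptor Nrp1, at a mean normalized count of 194 and 53.4 per kilobase, and the lymphatic receptor Flt4, at 67.7 and 10.8. The ligands Vegfc and Pgf were at 5.85 and 1.92 per kilobase, and Figf had a mean normalized count of 5.11. Vegfa, the main ligand of Kdr, and the co-receptor Nrp2 have 6 accessions each and were listed at 0.

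Around Tek, the phosphatase Ptprb, which holds Tek signaling down in endothelium, was at 23.6 per kilobase, above Tek itself. Of its ligands, Angpt2, which loosens vessels, was at 11.8 per kilobase, and Angpt1, which stabilizes them, at 2.96. Angpt4 was at 2.27. Of the PDGF genes, Pdgfb, the ligand of Pdgfrb made by endothelium, was at 4.58 per kilobase. Pdgfa, a ligand of Pdgfra, was at 24.3, Pdgfd, which binds Pdgfrb, at 15.5 and Pdgfc at 8.84. With the counted transcript as the length, Pdgfd was at 27.0 and above Pdgfa. The receptor Pdgfra has 2 accessions and was at 0.180 per kilobase.

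Norrin signaling through Fzd4 induces and keeps the barrier of retinal vessels, and 10 genes of this pathway and its Wnt relatives were found, together at 248 per 1000000. The ligand Ndp, its receptor Fzd4 and Tek lay close together, at 14.3, 14.5 and 14.5 per kilobase. The co-receptor Lrp5 was at 18.6 and Tspan12, which strengthens norrin signaling, at 20.2. With the counted transcript as the length, Lrp5 was at 32.1 and above Tspan12. Lrp6, a co-receptor used by many cells, was at 91.9, and Reck, which acts with Gpr124 as a co-receptor for brain Wnt ligands, at 36.2. The mean normalized count of Gpr124 was 316.

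Of the barrier transporters, 3 were above all 10 barrier genes per kilobase of the longest transcript, the glucose transporter Slc2a1 at 553, the lactate carrier Slc16a1 at 379.9 and the transferrin receptor Tfrc at 262. The amino acid carrier Slc7a5 was at 155, between Flt1 and Cldn5, and the efflux pump Abcb1a at 26.8. Slc2a1 and Slc16a1 are also used by photoreceptors, glia and pigment epithelium. The thyroid hormone carrier Slco1c1, with 2 accessions on the same model, was listed at 0.

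Of 15 further tight junction genes, 10 had 1 accession and 5 had more. Cldn12 was at 143 per kilobase, Jam2 at 105 and Jam3 at 70.8, and the junction adaptor Cgn at 50.9. Each of these is also made outside endothelium. Cldn10 and Lsr, with 6 and 3 accessions, were listed at 0.

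Of 19 further endothelial genes, the sphingosine receptor S1pr1 was highest, at 84.8 per kilobase, followed by Esam at 39.2, Plvap at 36.3 and Nos3, the endothelial nitric oxide synthase, at 21.6. Plvap forms the diaphragms of fenestrated vessels such as those of the choroid and is known to be low in barrier vessels, and it stood beside Cldn5. Vwf was at 6.69. The 14 genes with 1 accession had a median mean normalized count of 28.4, and the 5 with more, including Eng, Cd34 and Egfl7, were at 1.08 or less.

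Of 12 pericyte genes, Vtn held 7666 of the summed 8225, at 4396 per kilobase; it is made by photoreceptors as well. Rgs5 was at 68.8 per kilobase, Mcam at 15.1, Zic1 at 14.5 and Notch3 at 6.24. With the counted transcript as the length, Zic1 was at 28.9 and above Mcam. Of the 5 smooth muscle genes, Acta2 was at 38.6 per kilobase, Tagln at 15.1, Des at 2.94 and Cnn1 at 0.333, while Myh11, with 2 accessions, was listed at 0.

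**Figure D5:**
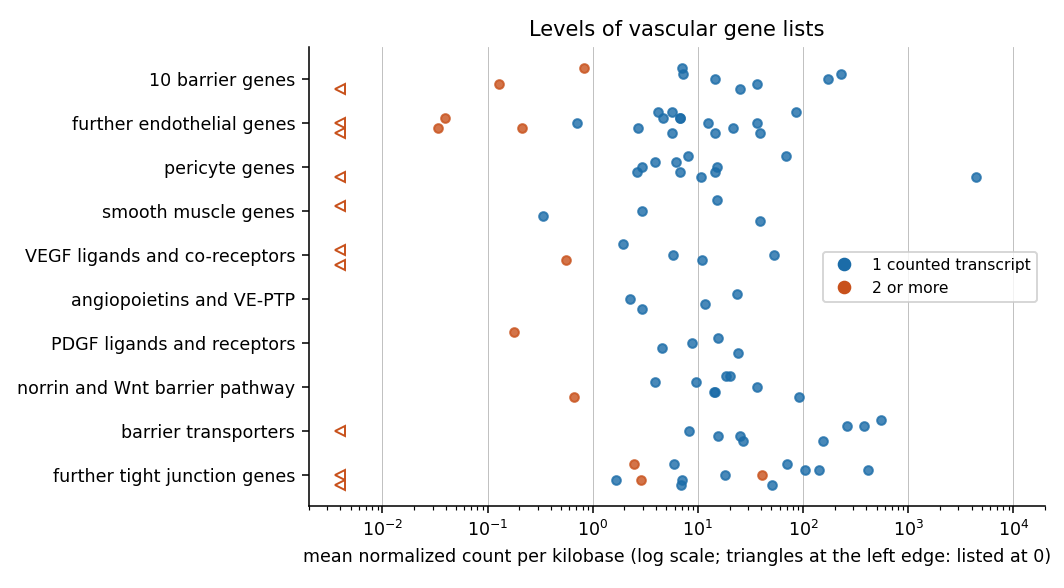
Level per kilobase, on a log axis, of the 10 barrier genes and of the genes of 9 vascular lists with an annotated length, blue with 1 and orange with 2 or more counted transcripts. Triangles at the left edge mark genes listed at 0, all of which have 2 or more; of 69 genes with 1, 59 have a mean normalized count of at least 10.

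Among the lists of cell types and pathways, without that of genes used by most cells, the genes nearest by the ratio of levels per kilobase were, for Cldn5, Reck, Plvap, the melanocyte gene Mlana and the microglial complement genes C1qa and C1qb, from 35.5 to 37.4. For Cdh5 they were Slco1a4, Pdgfa, Ptprb, Abcb1a and the lens gene Mip, from 22.9 to 26.8. Tek had Fzd4, Zic1, Sox18, Ndp and Tagln beside it, from 14.3 to 15.1. Kdr and Flt1 shared 4 of their 5 nearest genes, Cryba1, Crygs, Tfrc and Slc7a5, with Aqp4 and Cldn12 as the remaining ones. Tie1 and Ocln had the same neighbours, Cldn1, Cldn2, Robo4, Kcnj8 and Vwf. Tjp1 lay near Pax2, Tal1, Ctnnb1, Rlbp1 and Vegfb, and Pecam1 near Pdgfra, Ets1, Hba-a1, Cnn1 and Eng. Likeness here is in 1 pooled level per gene and not over samples. Neighbours were taken per kilobase of the longest transcript alone. With the counted transcript as the length, Zic1 was at 28.9 against 14.5 for Tek, and Cryba1 at 370 against 229 for Kdr.

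Genes of other cells were counted beside the barrier genes and are given as mean normalized counts. Of the rod photoreceptor genes, Gnat1 had a mean normalized count of 154477, Pde6a of 23335 and Pde6b of 13374, while Nrl, with 2 accessions, was at 88.9. Mueller glia genes held 3686 per 1000000, led by Glul at 17455 and Apoe at 5242, while Rlbp1, with 2 accessions, was at 1.39. Of 3 astrocyte genes Aqp4 was at 1755, Gfap, with 2 accessions, at 52.2 and Pax2, with 1, at 3.44, and 6 microglia genes had a median of 30.9, with C1qb highest at 40.7.

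Genes typical of tissue outside the neural retina were also counted, with values again as mean normalized counts. All 6 pigment epithelium genes were above 0, from Best1 at 2.72 to Ttr at 540.04, with Rpe65 at 121, and the list held 178 per 1000000. The 5 melanocyte genes found were led by Dct at 364 and Tyrp1 at 204 and held 110.2 per 1000000. The 6 lens genes held 264 per 1000000, against 406 for the 10 barrier genes. They were led by Cryaa at 898 and Crybb2 at 441, while Mip was at 49.1 and Lim2 lowest at 8.74. Whether lens tissue gave these reads was not tested. Of 4 red blood cell genes found, Hbb-b1 was at 10.7, Hba-a2 at 1.39 and Alas2, with 2 accessions, was listed at 0. Pigment epithelium has tight junctions and choroid has vessels, and their part in the levels of Ocln, Tjp1, Plvap or the receptor kinases was not tested.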

How the data were processed

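Per the submitters' processing notes and the study's methods, the authors trimmed reads of 75 bases with Trimmomatic, mapped them with TopHat2 to NCBI build 37.2 of the mouse genome, counted them with HTSeq on transcript accessions and used DESeq2 1.22.2 in R 3.5.1. The deposited signal value is the authors' mean over all 16 libraries of counts divided by size factors; 25905 symbols carry it. The HTSeq mode and the step from 31616 transcript accessions to symbols are not given in the sources used here. The deposited columns of fold changes, standard errors, test statistics and p-values hold the authors' own comparison and were not used. The 32 columns of counts per library, 16 in each of 2 tables, carry codes that match no sample label and were not used, so the planned test between the groups could not be run, and depth and spread between mice were not analysed here.

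Levels of listed genes were divided by the longest transcript of GENCODE release 21 (GRCm38). Ranks among genes above 0, sums by list and comparisons by number of accessions used the mean normalized count without that division. Accessions were matched to models by the RefSeq table of that release, versions ignored, and bases in 1 model alone and read starts wholly inside them were counted; the step was tested on simulated models. A read that joins bases of 1 model alone to shared bases was not counted. Named are the 10 genes, up to 5 of the most abundant genes of each list and the 5 nearest list genes; genes named outside this rule, such as Ndp, Tspan12 and those at or near 0, and the list of genes used by most cells, were chosen after their values were seen. Values of some listed genes are not reported here. The members and lists were chosen with earlier results of these data known. 25 symbols turned into dates have no accession row. All steps ran in Python 3.11.15 (pandas 2.3.3, numpy 2.4.6), and figures were drawn with matplotlib 3.10.9.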

Additional observations from a re-analysis of the deposited data

How the results depend on the processing

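No paired analysis was possible because the groups share mouse numbers in the labels while the columns of counts carry none. For the same reason the alternatives planned for the comparison of spaceflight with ground control (another test, no filter, the mouse number as a block, another threshold) were not run. Of the 10 barrier genes, 7 kept their place in the order of levels without division by length, 8 with the coding length and 2 with the shortest annotated coding transcript, where Cdh5 came first because its shortest has 346 bases. With the transcript matched to the accession, added after seeing the data, 10 kept it. Levels of some listed genes outside the 10 moved with that length, such as those of Lrp5, Pdgfd and Zic1. Per 1000 read starts, also added later, Tjp1 was at 7.39 in place of 0.823 per kilobase. That scale takes only reads wholly inside bases of 1 model as counted, which was not tested. Tjp1, Pecam1 and Pdgfrb were the lowest 3 per kilobase of the longest, coding and matched lengths and without division. With the shortest transcript Tie1 fell below Tjp1, and per 1000 read starts Ocln, at 7.12, did. The median share of genes lying below a barrier gene was 49.6% among genes above 0, 19.9% among genes of at least 10, 61.7% with zeros kept and, added after seeing the data, 57.6% among genes with 1 accession. Without the 10 most abundant genes in the total, the 10 barrier genes held 467 per 1000000 in place of 406; of 24 group shares, 22 rose and 2 fell, those of rods and of genes used by most cells, which hold some of the genes left out. Values near 0 rest on few reads, and no error was computed for them.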
